A study of Mus musculus with 12 samples.

Results

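Transcript levels of 10 genes that encode the core of the basement membrane were followed across mouse embryonic stem cells that lacked or regained the chromatin factors Dppa2 and Dppa4. The genes were named by their place in the basement membrane, though with earlier results of these data known. They were the laminin chain genes Lama1, Lama5, Lamb1 and Lamc1 and the collagen IV chain genes Col4a1 and Col4a2. The others were the nidogen genes Nid1 and Nid2, the perlecan gene Hspg2, and Sparc. All 10 had a probe set that carries a single gene symbol, out of 22180 such genes on the array. Nid1 had 2 of these probe sets, and the brighter stood for the gene. The cells were studied in 4 groups of 3 arrays, all of which carried a tdTomato reporter under the MERVL retroviral promoter. KO+Mut cells were Dppa2/4 knockout cells transfected with SUMO-deficient Dppa2 and Dppa4 joined to GFP. KO+WT cells were the same knockout transfected with the wild-type GFP fusions, and both were sorted for GFP. KO cells were the knockout alone and parental cells the reporter line with Dppa2 and Dppa4 intact, neither described as transfected or sorted. All were kept on gelatin in knock-out serum replacement medium with LIF. How many clones the knockout stands for was not given in the sources used here.

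A basement membrane is a thin sheet of extracellular matrix on which epithelia rest. Laminins, each a trimer of an α, a β and a γ chain, polymerize on the cell surface, and collagen IV forms a second network that nidogen and the heparan sulfate proteoglycan perlecan link to the first. The earliest sheet of the mouse embryo lies between the epiblast, from which embryonic stem cells derive, and the primitive endoderm, which makes large amounts of laminin and collagen IV.

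Signals were log2 values normalized by the authors, and no detection calls were used, so that a low value cannot be separated from background. Array lower quartiles ran from 2.36 to 2.47 and medians from 3.73 to 3.88, and every member lay above these medians in every group. The labels were checked on the targeted genes. Dppa2 differed by -1.29 in KO cells from parental cells (limma adjusted p = 0.0259) and Dppa4 by -0.84 (adjusted p = 0.102). Both exceeded the KO level in the add-backs, by 2.72 and 2.92 in KO+Mut and by 2.60 and 2.77 in KO+WT. The add-backs also stood above parental cells. Dppa2 read 10.79 to 11.34 on the add-back arrays and 9.35 to 10.17 on the parental arrays, and Dppa4 10.09 to 10.67 and 8.24 to 8.58. Probe positions relative to the deletion were not given in the sources used here. The arrays of a group are labelled biological replicates with no further detail, so p-values measure the spread between these samples. The number of arrays limited the precision: the 95% interval of a difference in a member reached 0.25 to 0.57 (log2) to either side.

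The laminin chain genes Lama1 and Lamb1 were lower in both add-backs than in parental cells, at about 0.52 of the parental signal. They fell in KO+Mut cells by 0.95 each (log2, SE 0.19 and 0.16, n = 3 arrays per group, adjusted p = 0.0301 and 0.0107 by limma with Benjamini-Hochberg adjustment over all genes). In KO+WT cells Lama1 fell by 0.94 (SE 0.19, adjusted p = 0.0477) and Lamb1 by 0.92 (SE 0.16, adjusted p = 0.0222). These 2 of 10 members passed in each comparison, where 0.338% of all genes were called lower in KO+Mut and 0.23% in KO+WT. A fit of only the 6 arrays compared ended both KO+WT calls (adjusted p = 0.146 for Lama1 and 0.124 for Lamb1) and the KO+Mut call of Lama1 (0.064). No member was called higher there, as 0.654% of all genes were in KO+Mut and 0.32% in KO+WT. In KO cells before any add-back, 0 of 10 members passed (0.203% of all genes were called lower and 0.0361% higher), and 5 members were lower at an unadjusted p under 0.05, as were 3.94% of all genes. RNA was taken from many cells at once, after sorting for GFP in the add-backs. Fewer cells of a type that makes laminin and less laminin RNA per cell therefore cannot be told apart. Nor can the transfection and sorting of the add-backs be told apart from their other differences from parental cells.

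Lama1 encodes the laminin α chain of the first embryonic basement membranes. Its signal (log2) was 6.74, 7.16 and 6.93 on KO+Mut replicates 1, 2 and 3, 6.78, 7.17 and 6.92 on the KO+WT arrays, 6.88, 7.32 and 7.30 on the KO arrays and 7.53, 7.995 and 8.17 on the parental arrays. All 9 arrays of cells with the knockout, with or without add-back, lay below the lowest parental array. The difference of KO from parental cells was -0.73 (SE 0.19, 95% interval -1.14 to -0.33, adjusted p = 0.228). With the replicate number as a block, since same-numbered arrays of these groups deviated together, Lama1 fell in KO cells (adjusted p = 0.0227), and 1 of 10 members and 0.437% of all genes were then called lower. The block left 2 of 10 members called lower in KO+Mut and 2 of 10 in KO+WT against parental cells, where it called 1.54% and 0.996% of all genes lower. Leaving out parental replicate 2 or 3 ended the KO+WT call (adjusted p = 0.194 and 0.182), as did leaving out any KO+WT array (0.135, 0.0773 and 0.131 for replicates 1, 2 and 3). The call in KO+Mut cells was lost without parental replicates 2 and 3 (0.132 and 0.141) and KO+Mut replicates 1, 2 and 3 (0.118, 0.0556 and 0.0941).

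Lamb1 encodes the β chain that pairs with the products of Lama1 or Lama5 and Lamc1. Its signal was 7.19, 7.14 and 6.98 on the KO+Mut arrays, 7.30, 7.08 and 7.01 on the KO+WT arrays, 7.21, 7.19 and 7.47 on the KO arrays and 7.75, 8.05 and 8.37 on the parental arrays. Again no array with the knockout reached the lowest parental array. KO cells differed from parental cells by -0.76 (SE 0.16, 95% interval -1.11 to -0.42), the largest difference of a member in that comparison, with an adjusted p of 0.0914, and of 0.0742 with the replicate block. With array weights the KO difference was -0.80 and passed (adjusted p = 0.0205). The call in KO+Mut cells was lost without KO+Mut replicate 3 (adjusted p = 0.0527) and in no other of the 6 fits that left out an array. In KO+WT cells leaving out replicate 2 or 3 of either group ended it (0.0902 and 0.0901 for the parental arrays, 0.0854 and 0.0804 for the KO+WT arrays).

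Sequence before the start of Lamb1 is shown because it is the called gene for which a promoter was at hand. RefSeq promoter windows of build GRCm38.p6, 250 bases before to 50 after a start, matched 7 of the 10 members by symbol. Capitals mark GGGCGG or its reverse complement, the GC box bound by Sp-family factors, in the window chr12:31265043-31265342 on the plus strand.
Lamb1: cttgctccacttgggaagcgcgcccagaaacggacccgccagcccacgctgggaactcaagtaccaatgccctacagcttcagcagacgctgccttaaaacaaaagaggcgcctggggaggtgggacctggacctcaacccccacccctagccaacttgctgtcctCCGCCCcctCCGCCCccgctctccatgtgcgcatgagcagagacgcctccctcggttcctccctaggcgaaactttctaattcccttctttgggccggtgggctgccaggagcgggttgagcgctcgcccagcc
The window holds 2 such GC boxes, against at least 1 in 35.7% of all 32851 windows, and 1 CCAAT (or ATTGG, found in 37.4% of windows). Neither TATAAA, in 13.6% of windows on either strand, nor GATAA, in 25.4%, occurs in it. Its G and C content was 63.7%, where the median window had 52.7%.

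Neither of the remaining laminin chains passed in any comparison. Lamc1, the γ chain shared by these trimers, read 8.68, 8.95 and 8.72 in KO+Mut, 8.75, 8.94 and 8.69 in KO+WT, 8.81, 8.92 and 9.06 in KO and 9.04, 9.29 and 9.30 in parental cells. Both add-backs lay wholly below parental cells, while KO overlapped them by 1 array. The differences from parental cells were -0.43 in KO+Mut, -0.42 in KO+WT and -0.28 in KO (SE 0.13 for each; adjusted p = 0.188, 0.242 and 0.714). Lama5, the α chain of many adult epithelia, read 7.31, 7.51 and 6.57 in KO+Mut, 7.56, 7.50 and 6.82 in KO+WT, 7.24, 7.28 and 6.93 in KO and 7.33, 7.35 and 6.94 in parental cells. Its groups overlapped in every comparison, and its differences from parental cells were -0.08, 0.08 and -0.06 in that order (SE 0.25), with intervals that reached from -0.61 to 0.62.

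**Figure D1:**
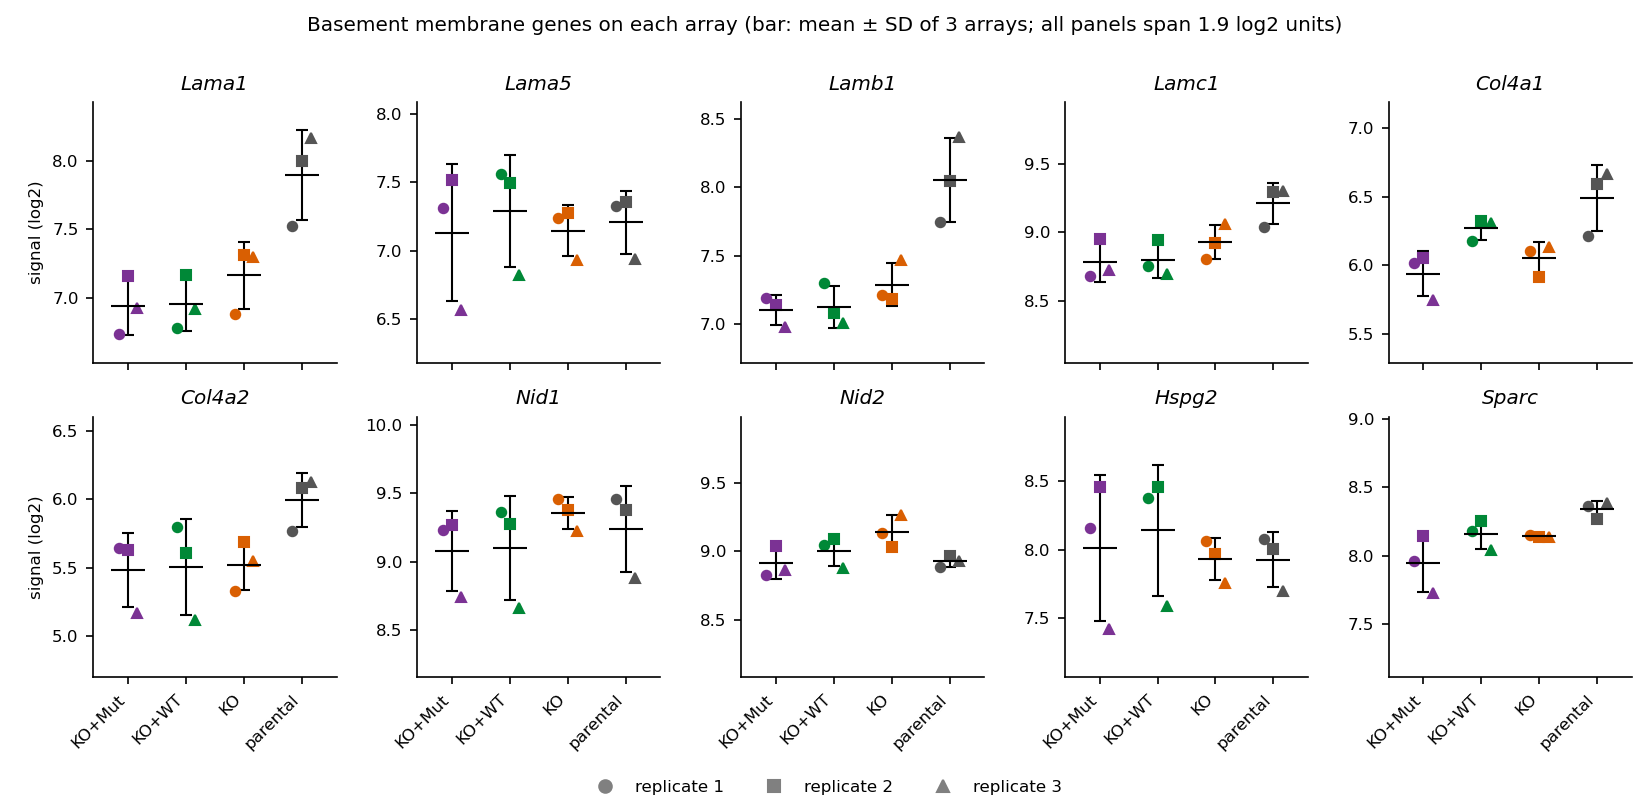
Signal (log2) of the 10 basement membrane genes on each of the 12 arrays, by group, with the mean and SD of 3 arrays as bars and the replicate number as the symbol. For Lama1 and Lamb1 all 9 arrays with the knockout lie below the 3 parental arrays; for Lama5, Nid1 and Hspg2 the replicate 3 array is the lowest of every group.

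Mean signals of the collagen IV genes were lower in KO+Mut, KO+WT and KO than in parental cells, by differences that did not pass. Col4a1 read 6.02, 6.05 and 5.75 in KO+Mut, 6.18, 6.33 and 6.31 in KO+WT, 6.10, 5.91 and 6.14 in KO and 6.21, 6.59 and 6.67 in parental cells. KO+Mut and KO cells lay below all parental arrays, and KO+WT overlapped them. Differences from parental cells were -0.55, -0.22 and -0.44 in KO+Mut, KO+WT and KO (SE 0.14; adjusted p = 0.105, 0.626 and 0.429). Col4a2 read 5.65, 5.63 and 5.17 in KO+Mut, 5.80, 5.61 and 5.11 in KO+WT, 5.33, 5.68 and 5.55 in KO and 5.76, 6.08 and 6.12 in parental cells. Its differences were -0.51, -0.49 and -0.47 in the same order (SE 0.19; adjusted p = 0.313, 0.378 and 0.636). Neither gene passed in any comparison.

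These collagen genes are read in opposite directions from neighbouring starts, and both windows are shown for that reason. The bases common to the windows are in capitals. The Col4a1 window is chr8:11312777-11313076 on the minus strand and the Col4a2 window chr8:11312555-11312854 on the plus strand.
Col4a1: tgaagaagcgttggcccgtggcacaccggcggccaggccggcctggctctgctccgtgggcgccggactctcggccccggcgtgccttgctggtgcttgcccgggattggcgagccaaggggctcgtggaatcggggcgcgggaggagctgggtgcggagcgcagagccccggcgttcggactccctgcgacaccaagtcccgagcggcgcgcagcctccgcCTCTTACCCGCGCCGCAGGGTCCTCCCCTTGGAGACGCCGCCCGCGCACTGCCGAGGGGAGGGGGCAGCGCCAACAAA
Col4a2: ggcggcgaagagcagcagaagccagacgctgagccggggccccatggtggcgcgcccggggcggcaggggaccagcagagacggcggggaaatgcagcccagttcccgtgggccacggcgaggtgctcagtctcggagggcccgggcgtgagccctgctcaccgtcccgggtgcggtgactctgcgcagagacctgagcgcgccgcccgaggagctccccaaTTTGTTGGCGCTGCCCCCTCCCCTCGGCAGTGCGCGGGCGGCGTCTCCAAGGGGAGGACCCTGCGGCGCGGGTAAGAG
The 78 shared bases, chr8:11312777-11312854, are exact reverse complements of each other, and the starts the table uses lie 21 bases apart. Each window holds 1 CCAAT or ATTGG, and they hold 1 and 3 GC boxes.

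None of the genes for the linking proteins passed in any comparison. Nid2 read 8.83, 9.04 and 8.86 in KO+Mut, 9.04, 9.09 and 8.88 in KO+WT, 9.13, 9.03 and 9.26 in KO and 8.89, 8.97 and 8.93 in parental cells. The KO arrays all lay above the parental ones, by 0.22 on average (SE 0.11, 95% interval -0.03 to 0.46, adjusted p = 0.807). It was the member with the largest positive value in that comparison. Nid1 read 9.23, 9.27 and 8.74 in KO+Mut, 9.36, 9.27 and 8.66 in KO+WT, 9.46, 9.38 and 9.23 in KO and 9.46, 9.38 and 8.88 in parental cells. Its groups overlapped, with differences from parental cells of -0.16, -0.14 and 0.12 (SE 0.21). On its dimmer probe set Nid1 read 7.53, 7.71 and 7.18 in KO+Mut, 7.87, 7.71 and 7.17 in KO+WT, 7.82, 7.71 and 7.62 in KO and 7.75, 7.75 and 7.26 in parental cells, with replicate 3 again the lowest of each group. Hspg2 read 8.15, 8.45 and 7.42 in KO+Mut, 8.38, 8.46 and 7.59 in KO+WT, 8.06, 7.97 and 7.76 in KO and 8.07, 8.01 and 7.70 in parental cells. Its differences of 0.08, 0.22 and 0.0037 from parental cells (SE 0.26) had intervals that reached from -0.56 to 0.78, the widest of the members.

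Sparc, a secreted glycoprotein that binds collagen IV and is abundant in parietal endoderm, read 7.96, 8.15 and 7.73 in KO+Mut, 8.18, 8.26 and 8.04 in KO+WT, 8.15, 8.14 and 8.14 in KO and 8.36, 8.27 and 8.38 in parental cells. All 9 arrays with the knockout lay below the 3 parental arrays. The differences were -0.39, -0.18 and -0.20 (SE 0.12; adjusted p = 0.202, 0.647 and 0.875), none past the threshold.

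Over the 10 members the median difference from parental cells was -0.41 in KO+Mut, -0.20 in KO+WT and -0.24 in KO cells, where the medians of all genes were -0.0024, 0.0036 and 0.00075. The 3 comparisons share the parental arrays. Groups lay wholly below parental cells for 6 members in KO+Mut, 4 in KO+WT and 5 in KO cells, while 9.38%, 7.8% and 6.83% of all genes did so. Wholly above was 1 member in KO cells, Nid2 (6.11% of all genes), and 0 members in KO+Mut (8.63%) and KO+WT (8.05%).

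**Figure D2:**
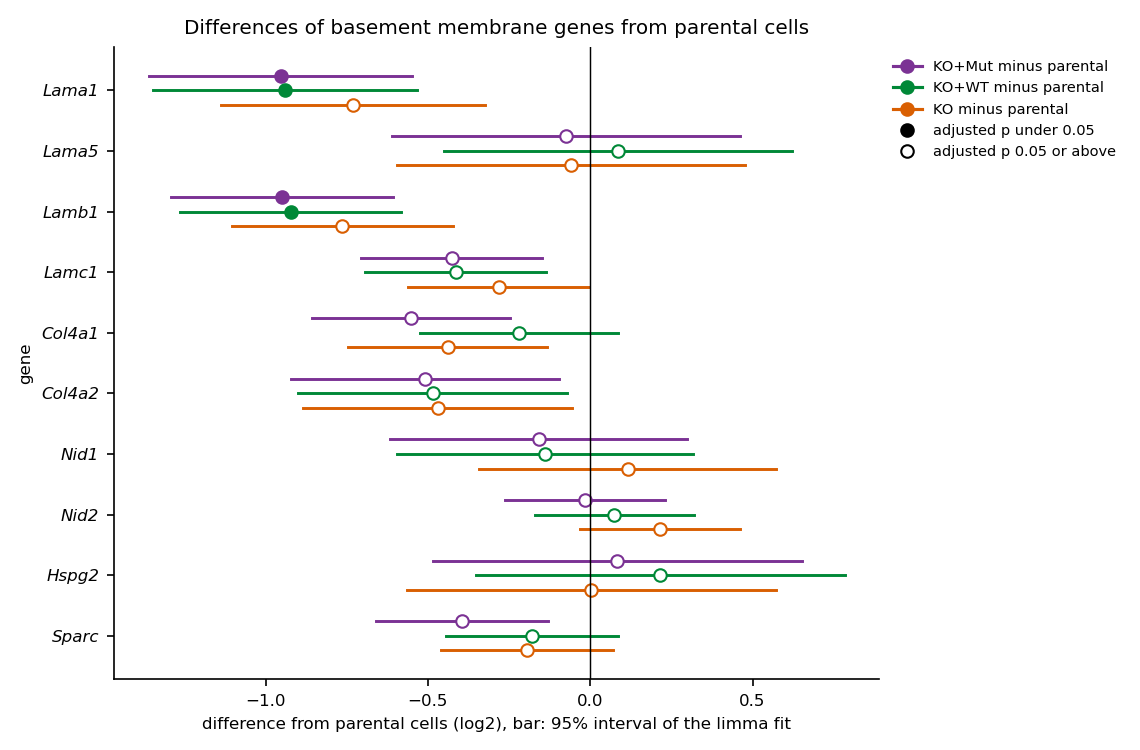
Difference of each basement membrane gene from parental cells (log2, horizontal axis) in KO+Mut, KO+WT and KO cells, with the 95% interval of the limma fit; filled points passed an adjusted p of 0.05. The filled points are Lama1 and Lamb1 in both add-backs, between -0.95 and -0.92, while the intervals of Lama5, Nid1, Nid2 and Hspg2 include 0 throughout.

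Levels in the add-backs were next compared with KO cells. KO cells were not described as transfected or sorted, so in this comparison the returned proteins cannot be told apart from those steps. By limma 0 of 10 members passed in KO+Mut against KO and 0 of 10 in KO+WT against KO, where 1.27% and 0.83% of all genes were called in either direction. At an unadjusted p under 0.05 the counts were also 0 and 0, where 12.5% and 12% of all genes passed. Lama1 differed from KO by -0.22 in KO+Mut (95% interval -0.63 to 0.18) and by -0.21 in KO+WT (-0.61 to 0.20). Lamb1 differed by -0.19 (-0.53 to 0.15) and -0.16 (-0.50 to 0.18). A gain of the size of the deficit in KO cells, 0.73 for Lama1 and 0.76 for Lamb1, lies outside these intervals. Those deficits had not passed by limma without the replicate block or array weights. Col4a1 in KO+WT was the member whose arrays all lay above the KO arrays, by 0.22 (SE 0.14, adjusted p = 0.577; 8.61% of all genes did so). No member lay wholly below KO in KO+WT (7.43% of all genes), nor wholly below or above it in KO+Mut (8.77% and 9.24%). The median over the members was -0.17 in KO+Mut, and ran from -0.22 to -0.098 when 1 array was left out. In KO+WT it was -0.07 and ran from -0.13 to 0.019, the positive value coming without KO+WT replicate 3.

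The add-backs were the groups matched for transfection and sorting. Between KO+Mut and KO+WT 0 of 10 members and 0% of all genes passed by limma. All 10 differences were negative, between -0.33 and -0.01, with a median of -0.06 where that of all genes was -0.0082 and 52.3% of all genes were negative. Without KO+Mut replicate 3 the differences of Lama5, Lamb1, Lamc1, Col4a2, Nid1 and Hspg2 were positive and the median was 0.027, and without KO+WT replicate 2 5 of the 10 were negative. Col4a1 differed by -0.33 (SE 0.14, 95% interval -0.64 to -0.03, adjusted p = 1), and was the member at an unadjusted p under 0.05. Col4a1, Nid2, Hspg2 and Sparc were lower in KO+Mut in all 3 number pairs. The Col4a1 groups did not overlap, as held for 3.62% of all genes in that direction and 3.07% in the other, which no member took. For Lama1 and Lamb1 the differences were -0.01 and -0.03, with intervals of -0.42 to 0.39 and -0.37 to 0.31.

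Several members varied with the replicate number, which was seen in the values and then tested with the replicate term of the blocked limma fit. The term passed for 4 of 10 members (Lama5, Nid1, Hspg2 and Lama1, adjusted p = 0.0107, 0.0121, 0.0242 and 0.0291), against 12.8% of all genes. Replicate 3 was the lowest array of each of the 4 groups for Lama5, Nid1 and Hspg2, as for 9.37% of all genes. On average over the groups it lay below the mean of replicates 1 and 2 by the following amounts: Hspg2 differed by -0.58 ± 0.32 (SD over 4 groups), Lama5 by -0.57 ± 0.25 and Nid1 by -0.47 ± 0.20. The gap in Hspg2 ran from -0.89 to -0.26 over the groups. Lama1 instead had replicate 1 as the lowest array of all 4 groups. The labels do not say what a shared replicate number stands for.

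**Figure D3:**
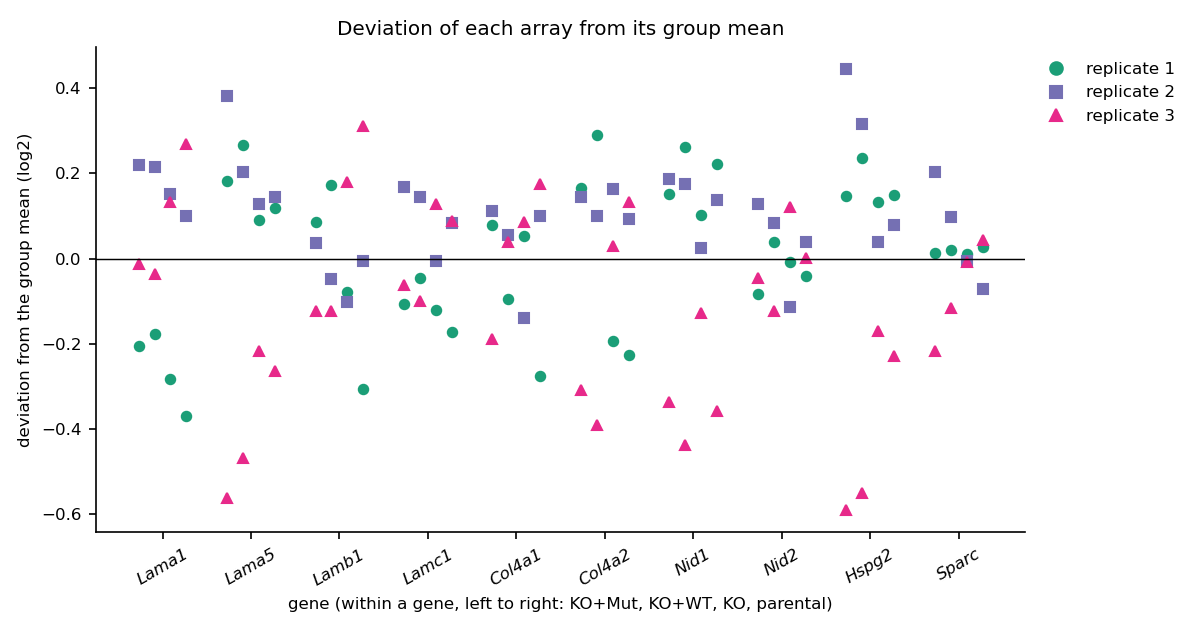
Deviation of each array from its group mean (log2, vertical axis) for the 10 basement membrane genes, with colour and symbol for the replicate number and the 4 groups side by side within a gene. Replicate 3 lies lowest in all groups for Lama5, Nid1 and Hspg2, and replicate 1 lies lowest in all groups for Lama1.

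Profiles over the 12 arrays, each relative to its own mean, were compared by their root mean square difference. Lama5 and Hspg2 were the closest of the member pairs, at 0.086 (log2), followed by Lamc1 and Sparc at 0.14. The pair Col4a1 and Col4a2 stood at 0.24. Lama1 and Hspg2 were the farthest apart, at 0.59. Promoter windows of the closest pair are shown, with GC boxes in capitals, at chr2:180225810-180226109 on the minus strand for Lama5 and chr4:137468553-137468852 on the plus strand for Hspg2.
Lama5: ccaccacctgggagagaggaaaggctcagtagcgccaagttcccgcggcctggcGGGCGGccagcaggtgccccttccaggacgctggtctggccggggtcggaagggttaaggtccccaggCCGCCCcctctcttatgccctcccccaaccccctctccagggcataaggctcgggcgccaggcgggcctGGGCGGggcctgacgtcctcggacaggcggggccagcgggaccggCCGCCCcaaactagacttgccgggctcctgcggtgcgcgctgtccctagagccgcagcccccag
Hspg2: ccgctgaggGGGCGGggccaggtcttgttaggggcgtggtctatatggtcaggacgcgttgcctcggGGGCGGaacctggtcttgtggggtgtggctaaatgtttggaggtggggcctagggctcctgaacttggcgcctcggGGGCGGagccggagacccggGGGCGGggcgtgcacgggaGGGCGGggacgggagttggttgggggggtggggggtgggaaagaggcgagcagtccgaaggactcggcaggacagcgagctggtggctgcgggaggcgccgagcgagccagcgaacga
They hold 4 and 5 GC boxes, and their G and C contents were 72.7% and 70.3%. Among 11000 genes outside the members and lists with a signal at or above the median, the profiles nearest to the mean of the 10 members were those of Fscn1, which encodes an actin-bundling protein, Lemd3, an inner nuclear membrane protein gene, Fam172a, the histone methyltransferase gene Ehmt1 and Ankrd27. Their root mean square differences from it ran from 0.073 to 0.081 over 12 arrays, and none of these 5 genes passed in KO against parental cells.

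Other genes of the matrix and its assembly were read by list, and few passed. Among 10 measured genes for the other laminin and collagen IV chains, 0 passed in any of the 6 comparisons by limma, the smallest adjusted p being 0.240. The counts at an unadjusted p under 0.05 were between 0 and 3, where 3.04% to 12.5% of all genes passed. The median of this list in KO against parental cells was -0.0092. Of 22 other basement membrane genes, Smoc1, which encodes a calcium-binding protein related to SPARC, fell in KO and 21 did not pass. Smoc1 read 5.36, 4.92 and 4.79 in KO+Mut, 5.37, 5.23 and 5.36 in KO+WT, 5.04, 4.78 and 4.39 in KO and 6.10, 5.68 and 6.08 in parental cells. It fell by 1.21 in KO (SE 0.19, adjusted p = 0.0217) and by 0.93 in KO+Mut (adjusted p = 0.0366), and differed by -0.63 in KO+WT from parental cells (0.225). The KO call was lost without parental replicates 1 and 3 (0.0982 and 0.12) and KO replicates 2 and 3 (0.0803 and 0.069). The KO+Mut call was lost without parental replicates 1 and 3 (0.145 and 0.151) and KO+Mut replicates 2 and 3 (0.17 and 0.139).

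Npnt, the gene of the integrin ligand nephronectin, rose over KO by 0.93 in KO+Mut and by 0.88 in KO+WT (SE 0.18; adjusted p = 0.0246 and 0.0448), as 1 of the 22 genes in each. It read 5.13, 5.12 and 4.84 in KO+Mut, 5.26, 4.92 and 4.76 in KO+WT cells, against 4.16, 4.34 and 3.81 in KO cells. Each of the 6 fits that left out an array ended the KO+WT call, at an adjusted p from 0.0501 (without KO+WT replicate 3) to 0.175 (without KO replicate 3), and the KO+Mut call was lost in 4 of 6. Those were the fits without KO replicates 1 and 3 (0.0687 and 0.114) and KO+Mut replicates 1 and 2 (0.0938 and 0.12). With the replicate block Npnt also rose over parental cells, by 0.60 in KO+Mut and 0.55 in KO+WT (adjusted p = 0.0178 and 0.0333 by limma). Smoc2 did so by 0.60 and 0.78 (0.0281 and 0.0146). The share of all genes that the block called higher is not given here, so these rises have no background to be read against. The same holds for the rises of other genes with the block below.

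Of 27 measured genes for collagen folding, modification and cross-linking, P4ha2 rose over KO in both add-backs and the other 26 did not pass. It encodes a subunit of the prolyl hydroxylase that stabilizes collagen helices. P4ha2 read 5.98, 6.40 and 6.43 in KO+Mut, 5.57, 6.21 and 6.13 in KO+WT, 4.84, 4.34 and 5.13 in KO and 5.31, 5.54 and 5.65 in parental cells. All 6 add-back arrays lay above the KO arrays, by 1.50 in KO+Mut (SE 0.22, adjusted p = 0.00377) and 1.20 in KO+WT (adjusted p = 0.0234). Leaving out any of the 6 arrays kept the KO+Mut call. Leaving out KO replicate 1 or 2 ended the KO+WT call (0.0665 and 0.0962), as did leaving out KO+WT replicate 2 or 3 (0.104 and 0.0812). P3h2, a collagen prolyl 3-hydroxylase gene, differed by -1.11 in KO from parental cells (SE 0.23, adjusted p = 0.0859) and fell with the replicate block (0.0427). With the block P4ha1 also fell in KO+Mut against parental cells (-0.83, 0.0397).

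Of 22 receptor genes the collagen receptor Ddr2 rose in KO+Mut against KO, by 2.18 (SE 0.46, adjusted p = 0.0398), and 21 did not pass. It read 6.09, 7.03 and 7.11 in KO+Mut, 4.93, 6.63 and 6.68 in KO+WT, 3.93, 4.63 and 5.12 in KO and 4.84, 5.79 and 5.78 in parental cells. Its replicate 1 array was the lowest of each group. The difference of KO+WT from KO was 1.52 (adjusted p = 0.19), and KO+Mut was not shown to differ from KO+WT (0.66, SE 0.46, adjusted p = 1). The KO+Mut call was lost without KO replicates 1, 2 and 3 (0.143, 0.107 and 0.0537) and KO+Mut replicates 2 and 3 (0.165 and 0.124). With the block Ddr2 also rose over parental cells in KO+Mut (1.27, adjusted p = 0.00652). Without the block no integrin gene passed.

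Markers of the endoderm, whose cells secrete this matrix, were read beside the laminins. Of all genes 49.8% were lower in KO, 49.3% in KO+WT and 50.5% in KO+Mut than in parental cells. Of 14 measured primitive endoderm markers 13, 11 and 14 were lower, in that order. None passed by limma, and 6 were lower at an unadjusted p under 0.05 in each comparison, as were 5.52% of all genes in KO+Mut, 4.68% in KO+WT and 3.94% in KO. Their medians were -0.41 in KO+Mut, -0.36 in KO+WT and -0.49 in KO cells. The mean of the list lay between 4.88 and 5.02 on the KO+Mut arrays, 5.0004 and 5.09 on the KO+WT arrays, 4.92 and 5.29 on the KO arrays and 5.41 and 5.83 on the parental arrays, so that no group with the knockout overlapped parental cells. Parental replicate 1 was the lowest parental array for this mean and for Lama1, Lamb1, Lamc1, Col4a1, Col4a2 and Nid2. For Lama5, Nid1 and Hspg2 the lowest was replicate 3, and for Sparc replicate 2. Replicate 1 was also the lowest array for the endoderm mean in KO, KO+WT and KO+Mut. Of the members with replicate 1 lowest in parental cells, Lama1 alone had it lowest in each of these groups. The lowest array for Lamb1 was replicate 2 in KO and replicate 3 in both add-backs. With the replicate block Pdgfra, a receptor gene of primitive endoderm, fell in KO (-1.24, adjusted p = 0.00091), KO+WT (-1.55, 0.000141) and KO+Mut (-1.76, 5.81e-05). The endocytic genes Dab2 and Cubn fell with the block in KO+Mut (-1.85 and -2.46, 0.00597 and 0.00263) and KO+WT (-1.84 and -2.58, 0.00929 and 0.00276). Sox7 differed by -0.77 and Gata4 by -0.56 in KO (adjusted p = 0.197 and 0.491). None of the 14 markers lay at or below the lower quartile of the arrays in any group. Their part in the laminin differences was not tested.

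Of 6 parietal endoderm markers outside the members, all 6 were lower in KO than in parental cells, where 49.8% of all genes were. None passed by limma, and 3 were lower at an unadjusted p under 0.05, as were 3.94% of all genes. Srgn, a proteoglycan core protein gene, fell below parental cells by 1.31 in KO+Mut (SE 0.14, adjusted p = 0.000383) and 1.23 in KO+WT (0.000939), and both calls held in all 6 fits that left out an array. It also fell below KO, by 0.73 and 0.65 (0.0187 and 0.0493), calls that ended in each such fit, at an adjusted p from 0.0516 (without KO replicate 2) to 0.0857 (without KO replicate 3) and from 0.0911 (without KO+WT replicate 1) to 0.179 (without KO replicate 3). Of 15 fibroblast and interstitial matrix genes 0 passed in any comparison by limma. At an unadjusted p under 0.05 the counts were 1 to 3, where 3.04% to 12.5% of all genes passed over the comparisons. In KO 13 of the 15 were lower than in parental cells, with a median of -0.11, against 5 in KO+WT and 6 in KO+Mut. The mean of the list lay between 4.51 and 4.72 on all arrays. Dcn and Lum of that list lay at or below the lower quartile of the arrays in every group. Vim, an intermediate filament gene, fell with the block in KO (-0.45, adjusted p = 0.0387), KO+WT (-0.41, 0.0314) and KO+Mut (-0.50, 0.00999), while Pdgfrb rose in KO (0.65, 0.0331). The 10 stem cell markers had list means between 8.64 and 8.85. At an unadjusted p under 0.05, 1 to 3 passed in 5 comparisons (6.94% to 12.5% of all genes) and 0 between the add-backs (3.04%). None passed by limma without the block. With it Sox2 and Fgf4 fell in KO+Mut against parental cells (-0.40 and -0.53, 0.0344 and 0.021).

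**Figure D4:**
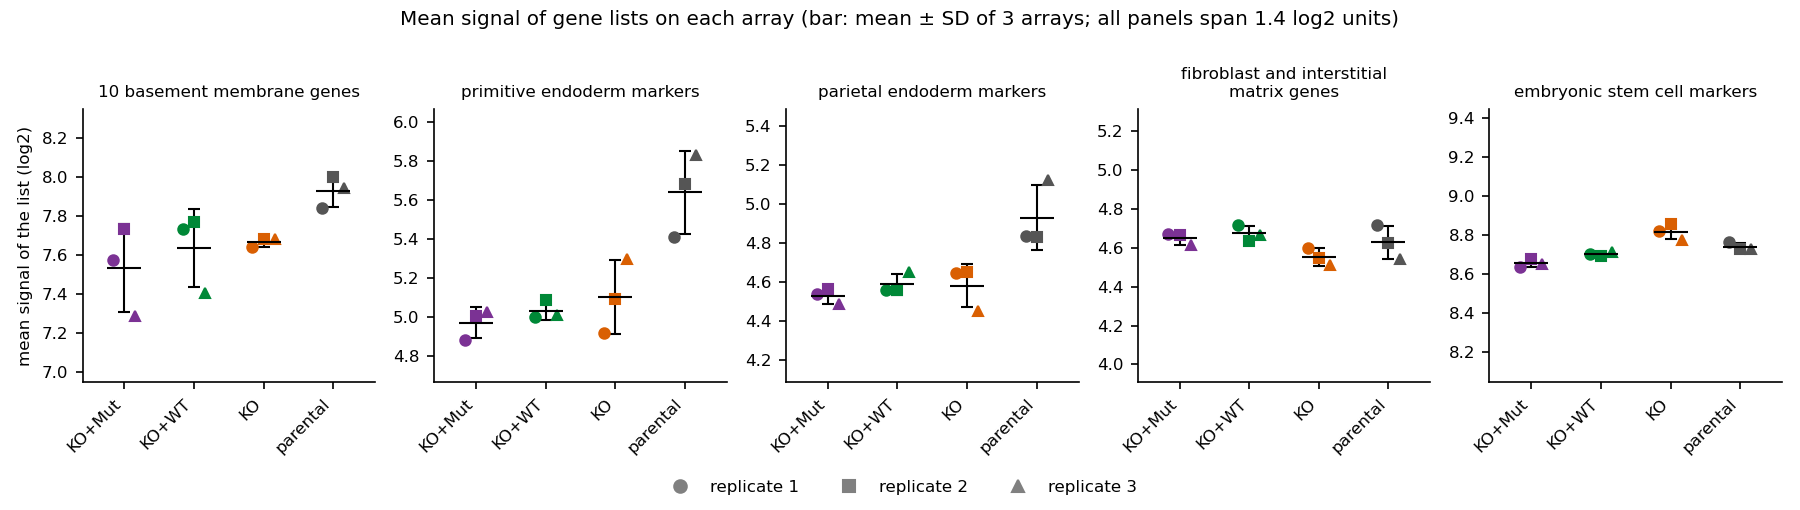
Mean signal (log2) of the 10 basement membrane genes and of 4 marker lists on each array, by group, with the mean and SD of 3 arrays as bars. The parental arrays stand highest for the members (7.84 to 7.998) and for the primitive endoderm markers (5.41 to 5.83), while the fibroblast list spans 4.51 to 4.72 over all arrays.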

How the data were processed

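RNA of 12 cultures, 3 per group, was measured on Affymetrix mouse arrays. The deposited values are log2 signals, made with Transcriptome Analysis Console per the submitters' processing notes; its version, background correction, summarization and build were not given in the sources used here. Of 41345 probe sets 23521 carried 1 gene symbol in GEO's platform annotation, 1814 several and 16010 none. The brightest by mean over all arrays stood for each of 22180 genes. No 2 of the 12 arrays were identical (66 pairs, r from 0.964 to 0.987).

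limma 3.58.1 (R 4.3.3) was fitted to the deposited log2 values of all 12 arrays as group means, with 6 contrasts, Benjamini-Hochberg adjustment over all genes and a threshold of 0.05. On simulated data for KO against parental cells with 22180 genes it called 74 of 100 genes changed by 1 (log2), 98 of 100 changed by 2, and 15 unchanged genes. The simulated errors were independent between genes and arrays and held no replicate effect, unlike the data, so these counts need not hold for the real fit. Replicate numbers were taken to pair arrays where the deviations of every same-numbered pair from their group means correlated above 0.1, which held for every comparison other than the add-backs against KO. The lowest such r was 0.064 in KO+WT and 0.082 in KO+Mut against KO, and 0.13 to 0.211 in the others.

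The members and gene lists were chosen with earlier results of these data known. Named in the text are all 10 members, up to 4 genes of each list with the smallest p in KO against parental cells, all list genes called in any comparison and 5 genes of the nearest profile. Smoc2, P4ha1, Cubn, Sox2, Fgf4, Dcn, Tgm2 and Thy1 fall outside that rule and were chosen after their values were seen. The alternatives tried are given with the closing observations.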

Additional observations from a re-analysis of the deposited data

How the results depend on the processing

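Of 1080 values recomputed under alternatives, 979 were counted as unchanged, and 60 differences of single genes changed sign. Single genes were judged by direction and side of the threshold, medians and counts of calls by a tolerance. Medians counted as unchanged could therefore cross 0, as at 0.019 in KO+WT against KO and 0.027 between the add-backs. The sign changes of single genes fell on 22 differences that had not passed and were at most 0.16 (log2) in size. The smallest adjusted p by limma among them was 0.696. With the replicate number as a block 1 member, Lama1, was called in KO against parental cells (adjusted p = 0.0227), and pairing changed no other call of a member. In the add-backs against KO, where the numbers did not pair the arrays, the block added calls among the list genes. Itgb5, Ddr2 and Col5a1 were called higher in KO+WT. In KO+Mut Col5a1 and Thy1 were called higher, and Pdgfra, Tgm2, Sox2 and Fgf4 lower. The share of all genes the block called in those comparisons is not given here. Array weights also gave 1 call of a member in KO against parental cells, Lamb1. The fit of only the 6 arrays compared called 0 members in KO+WT and 1 in KO+Mut against parental cells. Without replicate 3 of all groups, an alternative chosen after seeing the data that leaves 8 arrays, both counts were 0, with Lama1 at -0.81 and -0.79 and Lamb1 at -0.73 and -0.71 in KO+Mut and KO+WT. Leaving out 1 array gave 0 to 2 calls in either comparison. The median over members between the add-backs then ran from -0.23 to 0.027. Fewer arrays were fitted in these settings; beyond that the cause was not tested.

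Without 1 array, KO against parental differences ran from -0.19 to 0.049 for Lama5, -0.064 to 0.23 for Nid1 and -0.11 to 0.089 for Hspg2. KO+WT against KO ran from -0.16 to 0.18 for Col4a2 and -0.033 to 0.074 for Sparc. KO+Mut against KO ran from -0.21 to 0.27 for Lama5, -0.14 to 0.12 for Col4a2 and -0.14 to 0.37 for Hspg2. KO+Mut against KO+WT ran from -0.12 to 0.093 for Lama1, -0.40 to 0.12 for Lama5, -0.089 to 0.059 for Lamb1, -0.095 to 0.061 for Lamc1, -0.22 to 0.13 for Col4a2, -0.24 to 0.15 for Nid1 and -0.41 to 0.16 for Hspg2. KO+WT against parental ran from -0.0485 to 0.32 for Lama5 and -0.32 to 0.080 for Nid1. KO+Mut against parental ran from -0.27 to 0.21 for Lama5, -0.34 to 0.0097 for Nid1, -0.081 to 0.025 for Nid2 and -0.14 to 0.38 for Hspg2.

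Quantile normalization gave -0.0026 for Hspg2 (KO against parental), 0.074 for Lama5 (KO+Mut against KO) and 0.0715 for Nid2 (KO+Mut against parental). Median centring gave -0.062 for Sparc (KO+WT against KO) and -0.0009 for Hspg2 (KO+Mut against KO). Array weights gave 0.0425 for Lama5 (KO+Mut against KO), and 0.0048 for Lama5 and 0.0012 for Nid2 (KO+Mut against parental). Without replicate 3 of all groups the values were -0.0003 for Nid1 and -0.025 for Hspg2 (KO against parental), 0.20 for Col4a2 (KO+WT against KO), 0.16 for Lama5, 0.026 for Col4a1 and 0.13 for Col4a2 (KO+Mut against KO), and 0.074 for Lama5 and 0.0070 for Nid2 (KO+Mut against parental).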

Other observations

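In KO against parental cells several neighbouring genes of the matrix lay apart without passing the limma test. Fkbp14, which encodes a collagen-binding prolyl isomerase of the endoplasmic reticulum, read 5.69, 5.54 and 5.79 (log2) in KO cells and 5.12, 5.10 and 5.08 in parental cells, a difference of 0.57 (SE 0.13, adjusted p = 0.113). Mia3, needed for collagen export, differed by 0.31 (adjusted p = 0.602) in the same direction. P4ha2 differed by -0.73 (adjusted p = 0.37), so that it and P3h2 stood on the other side. Among genes for proteins at the cell surface Gpc3, a glypican, read 5.88, 5.59 and 5.46 in KO and 6.31, 6.14 and 6.21 in parental cells, a difference of -0.57 (SE 0.19, adjusted p = 0.48). Ddr2, the syndecan gene Sdc2 and the integrin gene Itgb5 differed by -0.91, -0.46 and -0.31, with adjusted p from 0.79 to 0.864. Of the minor basement membrane chains Lama3 differed by -0.16, Lamc3 by 0.20, Col4a3 by 0.21 and Col4a4 by 0.19, with adjusted p from 0.901 to 0.953. Matn2 and Npnt differed by -0.37 and -0.32 (adjusted p = 0.488 and 0.84), while Tinag lay at or below the lower quartile of the arrays in every group.

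The pluripotency factor gene Klf4 read 8.54, 8.59 and 8.40 in KO and 8.29, 8.10 and 8.11 in parental cells, a difference of 0.35 (SE 0.12, adjusted p = 0.485). Esrrb, Tdgf1 and Dppa5a also had every KO array above every parental array, as did 6.11% of all genes. Their differences were 0.26, 0.18 and 0.23 (adjusted p = 0.743, 0.825 and 0.854). The parietal endoderm markers Srgn, Stra6, Pth1r and Plat differed by -0.59, -0.30, -0.36 and -0.25 (adjusted p from 0.14 to 0.721). Every KO array lay below every parental array for them, as for 6.83% of all genes. These markers were named for the smallest p of their lists in this same comparison, which favours groups that do not overlap. Col5a1 of the interstitial matrix list differed by -0.26 (adjusted p = 0.761). No gene in these paragraphs passed in KO against parental cells.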
